A study of Mus musculus with 10 samples.

Results

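Chaperones of the endoplasmic reticulum (ER) are the proteins that fold and hold newly made secretory and membrane proteins in the ER lumen. The mRNAs of 10 such genes were followed in mouse liver, chosen by symbol as lumenal chaperones, their cofactors and the disulfide isomerases that work with them, namely Hspa5, Hsp90b1, Calr, Pdia3, Pdia4, Pdia6, Hyou1, Dnajb9, Sdf2l1 and Creld2. They were 10 of the 24421 genes listed in the count table, and all 10 were among the 11092 that had enough counts for a test. The livers came from 10 male wild-type C57BL/6 mice aged 21 weeks by the labels, which fed freely. The 5 Chow mice ate standard chow, and the 5 TM5614 mice ate the same chow with TM5614 added to give 20 mg/kg/day over 10 days. TM5614 is a small molecule taken by mouth that inhibits plasminogen activator inhibitor 1 (PAI-1), and the comparison asked how hepatic mRNA differs when PAI-1 is inhibited. Each mouse gave 1 poly(A) library, so replicates were separate animals.

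When proteins enter the ER faster than they can be folded, cells start the unfolded protein response. The sensors Ire1 (gene Ern1), Perk (gene Eif2ak3) and Atf6 sit in the ER membrane, where Hspa5 binds them, and once released they raise transcription of chaperones, of components that degrade misfolded proteins and, through Perk, of Atf4 targets. Hepatocytes carry a dense rough ER because they secrete most plasma proteins, and their chaperone mRNAs are abundant also without stress. Atf6 and the spliced form of Xbp1 act on chaperone promoters at the ER stress response element (ERSE), which joins a CCAAT box for the factor NF-Y to a CCACG box.

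The ERSE was looked for in the 250 bases before the transcription start of each gene, taken from RefSeq on GRCm38.p6. Windows were found for 9 of the 10 chaperones and not for Hyou1. The letters searched were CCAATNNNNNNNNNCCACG on both strands, and exact matches only were counted. Of 32851 promoter windows, 37 (0.113%) held a match, and 5 of the 9 chaperone windows did. The 6 elements of these 5 windows are shown because they carry the sequence feature these promoters share. They read as follows 5′ to 3′ on the strand of the match, with both boxes in capitals.

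Hspa5: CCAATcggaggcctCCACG
Hsp90b1, distal: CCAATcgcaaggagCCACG
Hsp90b1, proximal: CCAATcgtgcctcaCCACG
Calr: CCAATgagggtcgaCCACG
Pdia6: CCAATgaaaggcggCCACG
Creld2: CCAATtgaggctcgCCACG

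The element began 65 bases before the start in Hspa5, 212 and 107 bases before it in Hsp90b1, 162 in Calr, 98 in Pdia6 and 126 in Creld2. It lay on the strand of the gene in Hspa5, Pdia6 and the distal match of Hsp90b1, and on the other strand in Calr, Creld2 and the proximal match of Hsp90b1. The 9 bases between the boxes differed in all 6. A related element, ERSE-II, in which CCACG follows ATTGG after a single base, stood in 10 of all windows (0.0304%) and in none of the 9. The letters TGACGTG, found in 542 windows (1.65%), were present in Hspa5 alone and did not overlap its ERSE. Windows of Pdia3, Pdia4, Dnajb9 and Sdf2l1 held none of these letters. In GENCODE M21 the window of Dnajb9 lies wholly within the gene, and Pdia3, Pdia6 and Calr begin inside their windows. For these genes part or all of the sequence searched is thus not upstream of the GENCODE start.

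The windows of Hspa5, Hsp90b1 and Creld2 are shown in full, since these genes had an ERSE and passed the test described further on. The sequences run 5′ to 3′ along the gene and end at the base before the RefSeq start, with matches in capitals. That of Hspa5 is chr2:34771840-34772089 on the plus strand, that of Hsp90b1 chr10:86705445-86705694 on the minus strand and that of Creld2 chr15:88819396-88819645 on the plus strand. In GENCODE M21 the genes Hspa5 and Hsp90b1 begin inside these windows, and the ERSE of Hspa5 lies within the GENCODE gene. The proximal element of Hsp90b1 and that of Creld2 appear as their reverse complement.

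Hspa5: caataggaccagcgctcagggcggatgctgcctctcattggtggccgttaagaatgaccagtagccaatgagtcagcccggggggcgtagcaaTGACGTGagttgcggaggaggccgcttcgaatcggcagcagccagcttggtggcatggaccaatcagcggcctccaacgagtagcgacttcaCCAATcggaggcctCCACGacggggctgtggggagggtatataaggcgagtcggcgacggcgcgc
Hsp90b1: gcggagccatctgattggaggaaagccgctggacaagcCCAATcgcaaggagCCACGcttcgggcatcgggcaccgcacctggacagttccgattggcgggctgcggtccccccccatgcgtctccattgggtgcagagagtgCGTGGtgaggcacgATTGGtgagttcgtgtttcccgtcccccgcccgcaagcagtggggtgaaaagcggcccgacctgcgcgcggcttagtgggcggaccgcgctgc
Creld2: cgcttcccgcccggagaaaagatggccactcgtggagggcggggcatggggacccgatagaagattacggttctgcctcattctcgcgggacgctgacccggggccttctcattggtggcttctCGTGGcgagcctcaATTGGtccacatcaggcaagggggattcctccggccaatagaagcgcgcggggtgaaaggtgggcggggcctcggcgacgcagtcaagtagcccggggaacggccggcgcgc

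The GC content of these windows was 62.4% in Hspa5, 66.8% in Hsp90b1 and 66% in Creld2, against a median of 52.4% over all windows.

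Of the 10 ER chaperone mRNAs, 5 were higher in the livers of TM5614 mice. In edgeR's quasi-likelihood test, with p-values adjusted over all tested genes by the Benjamini-Hochberg method, Hspa5, Hsp90b1, Pdia3, Hyou1 and Creld2 rose and none fell. These were 5 of 10, where 1.73% of all tested genes were called higher, 2.77% lower and 4.50% in either direction. At an unadjusted p under 0.05, 7 of the 10 were higher and none lower, where 8.69% of all tested genes were higher and 20.4% differed in either direction. The remaining members, Calr, Pdia4, Pdia6, Dnajb9 and Sdf2l1, did not pass, and their estimates were also above 0. The median log2 fold change was 0.56 over the 10 genes and 0.01 over all tested genes, of which 51.5% had an estimate above 0. In 5 of the 10 (Hspa5, Hsp90b1, Pdia3, Pdia4 and Creld2) every TM5614 library was above every Chow library, where 4.07% of all tested genes showed this, 4.87% showed the opposite and 8.93% showed either. Together the 10 mRNAs made up 0.270% of the counts in Chow and 0.420% in TM5614, or 2743 ± 227 and 4143 ± 532 CPM (counts scaled to library size, SD, n = 5). The lowest TM5614 library, at 3588 CPM, lay above the highest Chow library, at 2984 CPM.

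**Figure D1:**
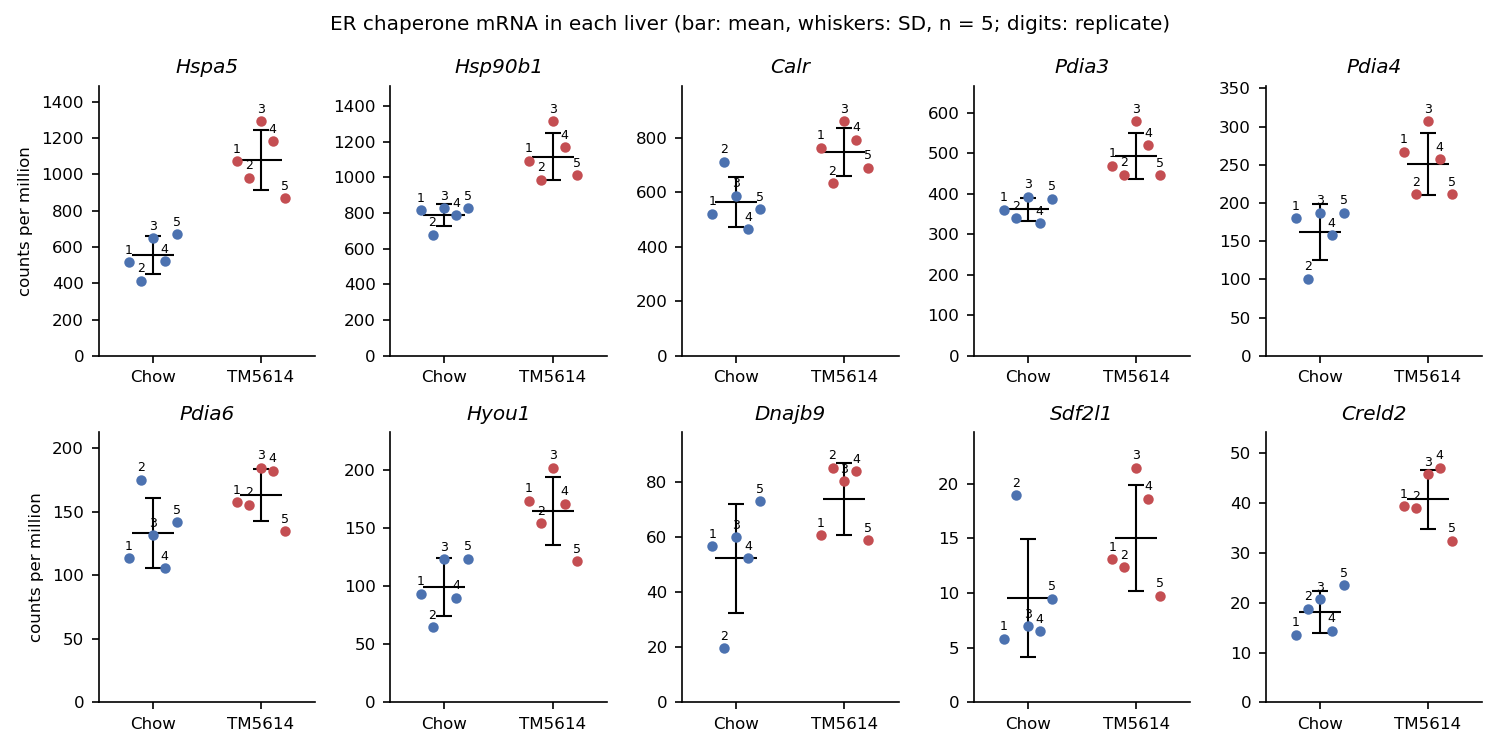
Level of each ER chaperone mRNA in CPM (vertical axis, linear, from 0) in every Chow and TM5614 library, with points numbered by replicate, a bar at the mean and whiskers of 1 SD (n = 5 a group). Groups do not overlap for Hspa5, Hsp90b1, Pdia3, Pdia4 and Creld2, and Chow replicate 2 is the highest Chow library for Calr, Pdia6 and Sdf2l1 and the lowest for 5 other genes.

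Certain facts of the libraries bear on these values. Totals ran from 6398335 to 10874955 counts. Chow replicate 2 stood apart, with a mean correlation of 0.927 across genes with the other Chow libraries, against 0.965 to 0.982 for the other 9 libraries and their own groups. A trend in GC content and transcript length accounted for 46.0% of its deviations across genes and for at most 11.5% in any other library. Results are therefore given also without this library and with the trend taken out as an offset. The liver label was borne out by hepatocyte markers, which summed to between 100632 and 127813 CPM. Markers of B and plasma cells, which are rich in ER chaperones, summed to between 234 and 292 CPM in Chow and between 251 and 345 CPM in TM5614, with Tnfrsf17 at 0 in all libraries. Pancreatic exocrine markers stayed at or under 16.4 CPM, with Prss2, Cpa1, Amy2a5 and Clps at 0. Markers of stellate cells and fibroblasts were at 160 to 280 CPM in Chow and 260 to 556 CPM in TM5614, those of Kupffer cells at 74.3 to 244 and 73.7 to 159 CPM, those of endothelium at 85.4 to 144 and 87.8 to 151 CPM, and those of cholangiocytes at 33.1 to 50.5 and 27.3 to 74.4 CPM. Skeletal muscle markers reached 3641 CPM in TM5614 replicate 2 and at most 1.25 CPM in Chow, and without that library 3 chaperones passed (Hspa5, Hsp90b1 and Creld2), as did 373 of all 11196 genes then tested. None of the markers tested passed the threshold, but many had too few counts for a test. Tested were 2 of 9 B and plasma cell markers, 3 of 6 cholangiocyte, 1 of 10 exocrine and 0 of 8 muscle markers. The part of these cell types in the chaperone values was not tested. In bulk tissue fewer cells of a type and less RNA per cell cannot be told apart.

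Hspa5, also called BiP, is the Hsp70 of the ER and binds exposed hydrophobic stretches of unfinished proteins. Its gene spans chr2:34771970-34777547 on the plus strand (GRCm38), and like the other 9 it is protein-coding. The Chow libraries, in order of replicate, held 517, 416, 649, 520 and 671 CPM, and the TM5614 libraries held 1071, 982, 1293, 1183 and 871 CPM. The lowest treated liver thus exceeded the highest Chow liver, 871 against 671 CPM, and within TM5614 replicate 5 was lowest. The means were 555 ± 105 and 1080 ± 165 CPM (SD, n = 5), a 1.95-fold rise (log2 fold change 0.96 ± 0.15 SE, edgeR adjusted p = 0.00411). Counts of 3284 to 11279 a library leave little counting error. Hspa5 passed the threshold in all 21 alternative settings, with adjusted p of 0.0171 or less in edgeR, DESeq2 or limma.

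Hsp90b1 (Grp94, chr10:86690209-86705509, minus strand) is the Hsp90 of the ER and serves a narrower set of clients, among them integrins and Toll-like receptors. Chow replicates 1 to 5 had 815, 679, 827, 789 and 827 CPM, and TM5614 replicates had 1093, 987, 1314, 1167 and 1013 CPM. Groups did not overlap, and apart from replicate 2 the Chow livers lay within a narrow band. The mean went from 787 ± 62.3 to 1115 ± 132 CPM (SD, n = 5), a 1.42-fold rise (log2 fold change 0.50, SE 0.11, edgeR adjusted p = 0.0230). The call was lost, with the estimate between 0.44 and 0.52, without Chow replicates 3 and 4 (edgeR adjusted p = 0.0536 and 0.0515) and without TM5614 replicates 1, 3 and 4 (0.0515, 0.0726 and 0.0692). With the GC and length offset the log2 fold change was 0.32 (edgeR adjusted p = 0.0735).

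Since Hspa5 and Hsp90b1 are often taken as a pair of markers of ER stress, their ratio was examined, a comparison chosen after the values were seen. Chow livers had 0.701 ± 0.0912 counts of Hspa5 per count of Hsp90b1 (SD, n = 5, range 0.612 to 0.812), and TM5614 livers had 0.966 ± 0.0611 (range 0.859 to 1.01). The log2 ratio was higher by 0.47 in TM5614 (exact two-sided permutation test, p = 0.00794, the smallest that 252 splits can give). It was higher by 0.42 without Chow replicate 2 and by 0.52 with the GC and length trend removed. Hspa5 thus rose by more than Hsp90b1, and the groups did not overlap in this ratio.

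Calr and the disulfide isomerases Pdia3, Pdia4 and Pdia6 come next. Calr (chr8:84841850-84846934, minus strand) encodes calreticulin, a calcium-binding lectin that holds glycoproteins carrying a single terminal glucose. It was at 521, 712, 587, 465 and 537 CPM in Chow and at 763, 632, 860, 793 and 689 CPM in TM5614. Chow replicate 2 lay inside the TM5614 range and 3 treated libraries lay above it. The log2 fold change was 0.41 (SE 0.13), which did not pass (edgeR adjusted p = 0.113), and without Chow replicate 2 it was 0.50 and passed (edgeR adjusted p = 0.0123).

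Pdia3 (ERp57, chr2:121413775-121438687, plus strand) is the isomerase that calreticulin and calnexin recruit to glycoproteins. Its Chow values were 361, 340, 393, 328 and 388 CPM and its TM5614 values 470, 447, 579, 521 and 446 CPM. The groups were separate, with means of 362 ± 28.8 and 493 ± 57.2 CPM (SD, n = 5). This was a 1.36-fold rise (log2 fold change 0.44, SE 0.11, edgeR adjusted p = 0.0388). The call was lost when any library other than Chow replicate 2 was left out. Leaving out Chow replicate 1, 3, 4 or 5 gave edgeR adjusted p = 0.0779, 0.0656, 0.0962 and 0.0569, and leaving out TM5614 replicates 1 to 5 gave 0.0710, 0.0512, 0.118, 0.112 and 0.0577, with log2 fold changes of 0.38 to 0.48.

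Pdia4 (ERp72, chr6:47796141-47813430, minus strand), a larger disulfide isomerase, had 180, 101, 187, 157 and 187 CPM in Chow and 267, 212, 307, 257 and 211 CPM in TM5614. Every treated liver was above every Chow liver, and Chow replicate 2 was far below the other Chow livers. The log2 fold change of 0.63 (SE 0.18) missed the threshold in edgeR (adjusted p = 0.0689). It passed without Chow replicate 2, at 0.49 (edgeR adjusted p = 0.0232), with DESeq2 (adjusted p = 0.0158) and with limma-voom and sample quality weights (adjusted p = 0.0111).

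Pdia6 (chr12:17266545-17284770, plus strand), a further isomerase that associates with Hspa5, showed the smallest difference of the 10. Its Chow libraries held 114, 175, 132, 106 and 142 CPM, and its TM5614 libraries 158, 156, 185, 182 and 135 CPM. Chow replicate 2 was above 3 of the treated livers. The log2 fold change, 0.29 ± 0.15 (SE), did not pass (edgeR adjusted p = 0.300), and without Chow replicate 2 it was 0.40 (edgeR adjusted p = 0.0494).

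Hyou1, Dnajb9, Sdf2l1 and Creld2 act around Hspa5 or share its induction. Hyou1 (Grp170, chr9:44379490-44392369, plus strand) exchanges the nucleotide on Hspa5. It was at 93.3, 64.9, 123, 89.8 and 123 CPM in Chow and at 173, 154, 202, 171 and 121 CPM in TM5614. TM5614 replicate 5 fell just under Chow replicates 3 and 5, and the other 4 treated livers were above all Chow livers. The mean rose 1.66-fold (log2 fold change 0.73, SE 0.19, edgeR adjusted p = 0.0463). The call was lost without Chow replicates 1, 3 and 4 (edgeR adjusted p = 0.0873, 0.0536 and 0.104) and without TM5614 replicates 1 to 4 (0.0998, 0.0715, 0.138 and 0.116), with log2 fold changes of 0.65 to 0.82.

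Creld2 (chr15:88819646-88826683, plus strand), an ER-resident protein with epidermal growth factor-like repeats that is induced with Hspa5 under ER stress, had the largest log2 fold change of the 10. Its 91 to 412 counts a library gave 13.6, 18.8, 20.7, 14.4 and 23.5 CPM in Chow and 39.3, 38.9, 45.8, 47.1 and 32.4 CPM in TM5614. The ranges were well apart. The mean rose from 18.2 ± 4.18 to 40.7 ± 5.90 CPM (SD, n = 5), a 2.23-fold rise (log2 fold change 1.16, SE 0.17, edgeR adjusted p = 0.00236). Ranked by log2 fold change over all tested genes Creld2 was number 100 and Hspa5 number 162. Creld2 passed in all 21 alternative settings, with adjusted p of 0.0104 or less in edgeR, DESeq2 or limma.

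Dnajb9 (ERdj4, chr12:44205559-44210326, minus strand) is a J-domain cochaperone of Hspa5 and a target of spliced Xbp1. Its values were 56.6, 19.7, 59.8, 52.3 and 73.0 CPM in Chow and 60.7, 85.1, 80.3, 84.0 and 58.8 CPM in TM5614. The groups overlapped, and Chow replicate 2 was far below every other library. The log2 fold change, 0.50 ± 0.27 (SE), did not pass (edgeR adjusted p = 0.325). It was 0.28 without Chow replicate 2 (edgeR adjusted p = 0.241), and in none of the 22 settings did it pass.

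Sdf2l1 (chr16:17130138-17132383, minus strand), which works with the cochaperone Dnajb11 to keep proteins from aggregating, was the scarcest of the 10 with 41 to 196 counts a library. Chow libraries held 5.82, 18.9, 6.99, 6.50 and 9.48 CPM and TM5614 libraries 13.1, 12.3, 21.4, 18.6 and 9.75 CPM. Chow replicate 2 exceeded 4 of the treated livers, while the other Chow livers were below all of them. The log2 fold change, 0.64 ± 0.33 (SE), did not pass (edgeR adjusted p = 0.295). Without Chow replicate 2 it was 1.04 (edgeR adjusted p = 0.0166), and with the GC and length offset it was also 1.04 (edgeR adjusted p = 0.0337).

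**Figure D2:**
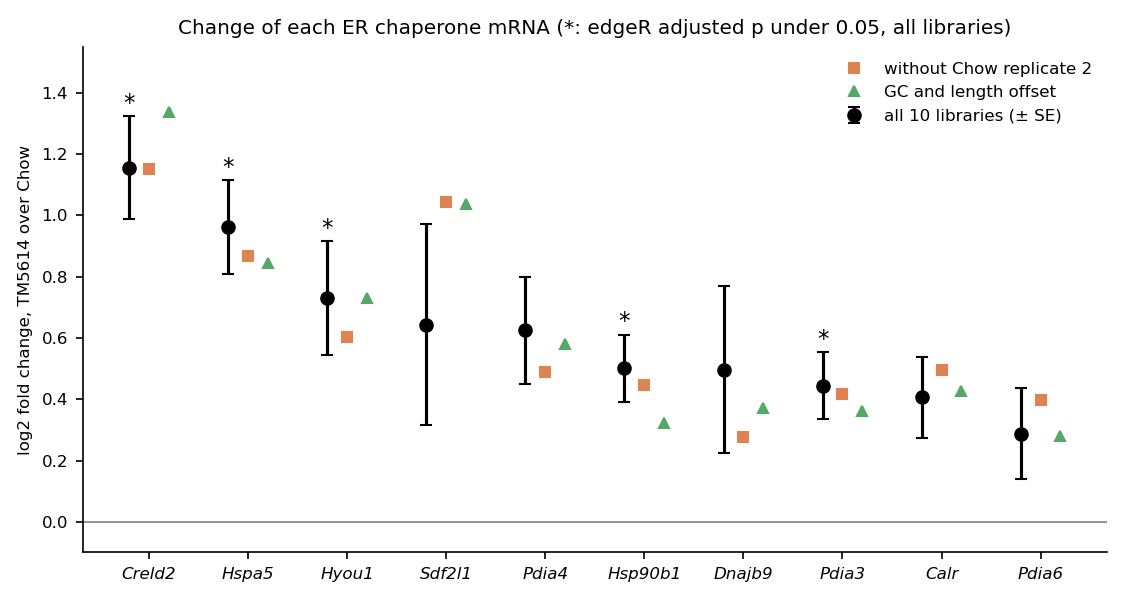
Log2 fold change of TM5614 over Chow for each ER chaperone (vertical axis) from all 10 libraries (black points, bars of 1 SE, an asterisk where the edgeR adjusted p was under 0.05), without Chow replicate 2 (orange squares) and with a GC and length offset (green triangles). All estimates lie above 0. With all 10 libraries Creld2 and Hspa5 lead at 1.16 and 0.96. Sdf2l1 moves most, from 0.64 to 1.04 in both other settings, where Hspa5 is at 0.87 and 0.84.

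Without Chow replicate 2, 9 of the 10 chaperones passed, all but Dnajb9, and the count over all genes rose from 499 to 1031. With the GC and length offset 5 passed (Hspa5, Pdia3, Hyou1, Sdf2l1 and Creld2), and 716 of all genes did. The deviations of this library ran in both directions among the chaperones. Relative to the median of the other Chow livers, on the log2 CPM scale, it was 1.46 above for Sdf2l1, 0.52 above for Pdia6 and 0.43 above for Calr. For Dnajb9, Pdia4, Hyou1 and Hspa5 the differences were -1.55, -0.86, -0.72 and -0.48. Dnajb9 has the lowest GC content of the 10 by its longest transcript (40.6%) and Sdf2l1 the highest (56.7%). With the GC and length trend removed the difference was 0.56 for Sdf2l1 and -1.01 for Dnajb9, both nearer to 0. For Pdia4 and Hyou1 it was -0.76 and -0.64, for Calr and Pdia6 0.26 and 0.43, and for Hspa5 -0.09. Removing the trend turned the sign for Pdia3 (from -0.14 to 0.10), Hsp90b1 (from -0.27 to 0.31) and Creld2 (from 0.12 to -0.62).

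Among the treated livers the 10 mRNAs kept much the same order. TM5614 replicate 3 was highest for 8 of the 10 and TM5614 replicate 5 lowest for 8. Among Chow livers replicate 5 was highest for 6, and replicate 2 was highest for 3 and lowest for 5. With group means subtracted, the correlation between pairs of chaperones over the 10 libraries had a median of 0.53 over 45 pairs (range -0.55 to 0.98, with 9 below 0). Hyou1 and Hspa5 formed the most correlated pair and Dnajb9 and Calr the least. Over the 9 libraries without Chow replicate 2 the median was 0.82 and no pair was below 0 (range 0.24 to 0.97). These libraries share their scaling, so the values only describe how the mRNAs varied together.

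**Figure D3:**
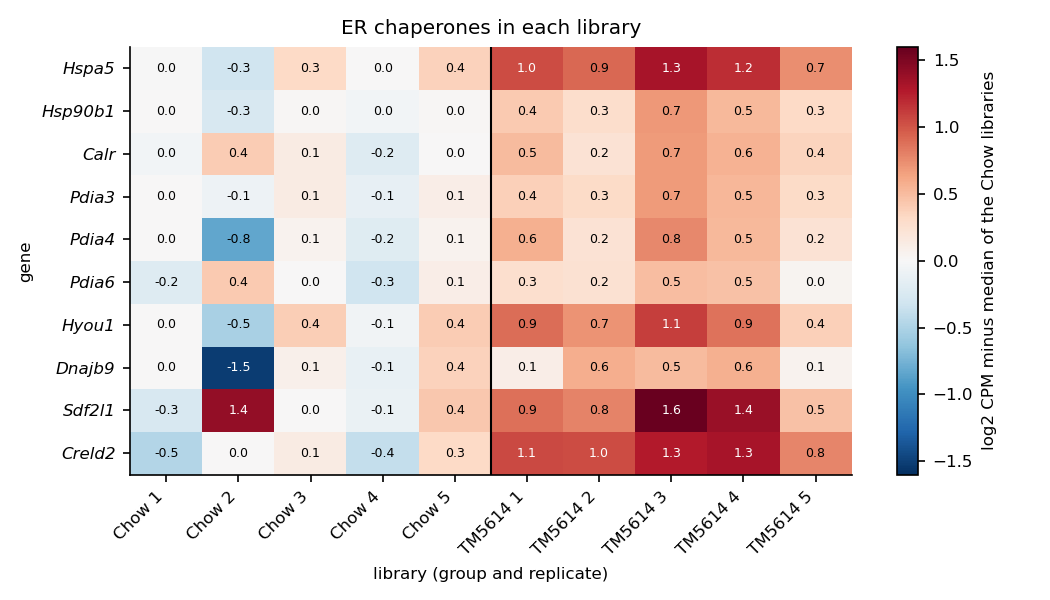
Log2 CPM of each ER chaperone (rows) in each library (columns, by group and replicate) minus the median of the 5 Chow libraries, on a color scale from blue (lower) to red (higher). The TM5614 columns are red or near white throughout, replicate 3 is the deepest in 8 of 10 rows, and the Chow replicate 2 column holds both the strongest blue (Dnajb9) and a strong red (Sdf2l1).

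Per length of transcript, the 10 mRNAs covered a 33.7-fold range in Chow. In FPKM the order was Calr (287 ± 47.8), Hsp90b1 (282 ± 22.4), Hspa5 (209 ± 39.7), Pdia3 (135 ± 10.9), Pdia4 (64.7 ± 14.6), Pdia6 (62.1 ± 12.8), Dnajb9 (27.7 ± 10.5), Hyou1 (22.0 ± 5.52), Creld2 (13.2 ± 3.02) and Sdf2l1 (8.51 ± 4.83), all as mean and SD of n = 5. Among neighbors in this order, ranges over libraries were separate only between Hspa5 and Pdia3, between Pdia3 and Pdia4 and between Pdia6 and Dnajb9. In TM5614 Hspa5 (407 ± 63.5 FPKM) and Hsp90b1 (398 ± 48.6 FPKM) stood before Calr (379 ± 47.1 FPKM), with overlapping ranges. The other 7 kept their places in TM5614, and there Creld2 (29.4 ± 4.33 FPKM) was separate from Sdf2l1 (13.4 ± 4.33 FPKM).

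The rise was next set against other genes of the secretory pathway and against chaperones of other compartments. All of these lists were described by counts and medians, without a test of the list. Over all tested genes 1.73% were called higher, 2.77% were called lower and 51.5% had an estimate above 0. Of 27 other ER folding factors, 2 rose and none fell. Among the 27, 15 had estimates above 0, with a median log2 fold change of 0.05. Those that rose were Dnajb11, a J-domain cochaperone of Hspa5, and Manf, a lumenal protein that binds Hspa5 and is secreted under stress. Dnajb11 went from 70.5 ± 4.10 to 107 ± 12.6 CPM (SD, n = 5, log2 fold change 0.60, edgeR adjusted p = 0.00762), with separate groups. Manf went from 58.5 ± 6.74 to 101 ± 20.3 CPM (SD, n = 5, log2 fold change 0.78, edgeR adjusted p = 0.0129), with overlapping groups. At an unadjusted p under 0.05, 5 of the 27 were higher and 2 lower, where 964 and 1299 of all 11092 tested genes were. Ppib and Sil1, 2 of the 27, did not pass but had separate groups with TM5614 lower, as for 4.87% of all tested genes. Ppib ran from 169 to 361 CPM in Chow and from 140 to 153 CPM in TM5614. Sil1 ran from 44.1 to 87.7 CPM in Chow and from 38.7 to 43.9 CPM in TM5614. The log2 fold changes of Ppib and Sil1 were -0.54 and -0.41 (edgeR adjusted p = 0.156 and 0.234). P4hb, the most abundant disulfide isomerase, and Canx, the membrane-bound partner of calreticulin, were singled out after their values were seen. P4hb had -0.07 ± 0.11 (log2 fold change and SE, edgeR adjusted p = 0.724) and Canx had 0.22 ± 0.13 (edgeR adjusted p = 0.359).

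None of 12 sensors and transcription factors of the unfolded protein response passed in edgeR, and 9 of them had estimates above 0 (median 0.16). At an unadjusted p under 0.05, 1 of the 12 was higher, where 8.69% of all tested genes were. DESeq2 called 0 of the 12 and limma-voom 1. The genes in the next sentences that did not pass were also picked after seeing values. Xbp1 was at 152 ± 6.48 CPM in Chow and 181 ± 18.3 CPM in TM5614 (log2 fold change 0.25, edgeR adjusted p = 0.187), and counts per gene do not separate its spliced form. The log2 fold changes of Atf6, Ern1, Eif2ak3 and Atf4 were 0.20, 0.17, 0.52 and -0.26, with edgeR adjusted p of 0.545, 0.742, 0.308 and 0.370. Of 9 tested targets of Perk and Atf4 none passed in edgeR (median 0.09, 5 above 0), 1 was higher at an unadjusted p under 0.05, and DESeq2 called 0 and limma-voom 1. Ddit3, which encodes the stress factor Chop, had -0.08 (SE 0.22, edgeR adjusted p = 0.855). Among 19 tested genes of ER-associated degradation, which sends misfolded proteins to the proteasome, 12 had estimates above 0 (median 0.13), none rose and Rnf5 fell. Rnf5, a membrane ubiquitin ligase, went from 53.1 ± 5.39 to 37.1 ± 3.85 CPM (SD, n = 5, log2 fold change -0.52, edgeR adjusted p = 0.0230), and this call was lost without Chow replicate 3 or TM5614 replicates 1, 3 or 5 and with the GC and length offset. The direction of the list's calls varied with the setting, since 3 of 4 were higher with DESeq2, with limma-voom and without Chow replicate 2, and both calls with the offset were higher. Herpud1, another target of the response, had -0.27 (SE 0.23, edgeR adjusted p = 0.525).

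None of 24 tested genes of ER entry and glycosylation passed in edgeR (median -0.00, 12 above 0). At an unadjusted p under 0.05, 2 were higher and 2 lower, where 964 and 1299 of all 11092 tested genes were. DESeq2 called 1 of the 24 and limma-voom 3. Of 19 tested genes of ER to Golgi transport, none passed in edgeR and 17 were above 0. These genes include the KDEL receptors, which return lumenal chaperones to the ER. Their median was 0.21, against 0.14 without Chow replicate 2 and 0.16 with the GC and length offset. At an unadjusted p under 0.05, 4 of the 19 were higher, where 8.69% of all tested genes were. DESeq2 called 1 of them and limma-voom 5. Among 19 major secreted proteins of liver, which are the chaperones' clients, none passed in edgeR and 3 were above 0. Their median was -0.25, against -0.19 without Chow replicate 2 and -0.18 with the GC and length offset. At an unadjusted p under 0.05, 8 of them were lower, as were 1299 of the 11092 genes tested, and DESeq2 called 3 and limma-voom 4, all lower. The groups of 5 of these, Ahsg, Ambp, F2, Serpinc1 and Ttr, did not overlap, with TM5614 lower, as for 4.87% of all tested genes.

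Among all tested genes, 1.73% were called higher and 51.5% had an estimate above 0. Of 19 cytosolic chaperones tested, 5 rose, none fell and all 19 had estimates above 0, with a median of 0.44. Those that rose were the small heat shock protein Hspb1 (log2 fold change 1.71, edgeR adjusted p = 0.0183), the exchange factor Hsph1 (1.47, 0.0293), the inducible Hsp90 gene Hsp90aa1 (1.13, 0.00315), the constitutive Hsp70 gene Hspa8 (0.97, 0.00169) and the Hsp90 activator Ahsa1 (0.42, 0.0417). Hspa8 went from 447 ± 74.6 to 876 ± 102 CPM (SD, n = 5) and Hsp90aa1 from 60.4 ± 10.6 to 132 ± 30.2 CPM (SD, n = 5), both with separate groups. Ahsa1 went from 62.0 ± 6.63 to 82.8 ± 5.11 CPM (SD, n = 5), also with separate groups. The groups overlapped for Hspb1, from 3.96 ± 1.74 to 13.1 ± 6.14 CPM (SD, n = 5). They also overlapped for Hsph1, from 27.7 ± 16.1 to 77.0 ± 19.4 CPM (SD, n = 5). The count of 5 was 11 without Chow replicate 2 and 2 without Chow replicate 4 or TM5614 replicate 3. In mitochondria 1 of 9 rose, Clpx, the unfolding subunit of the Clp protease, from 100 ± 32.2 to 288 ± 54.0 CPM (SD, n = 5, log2 fold change 1.52, edgeR adjusted p = 0.00175), while the median of the 9 was 0.15.

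**Figure D4:**
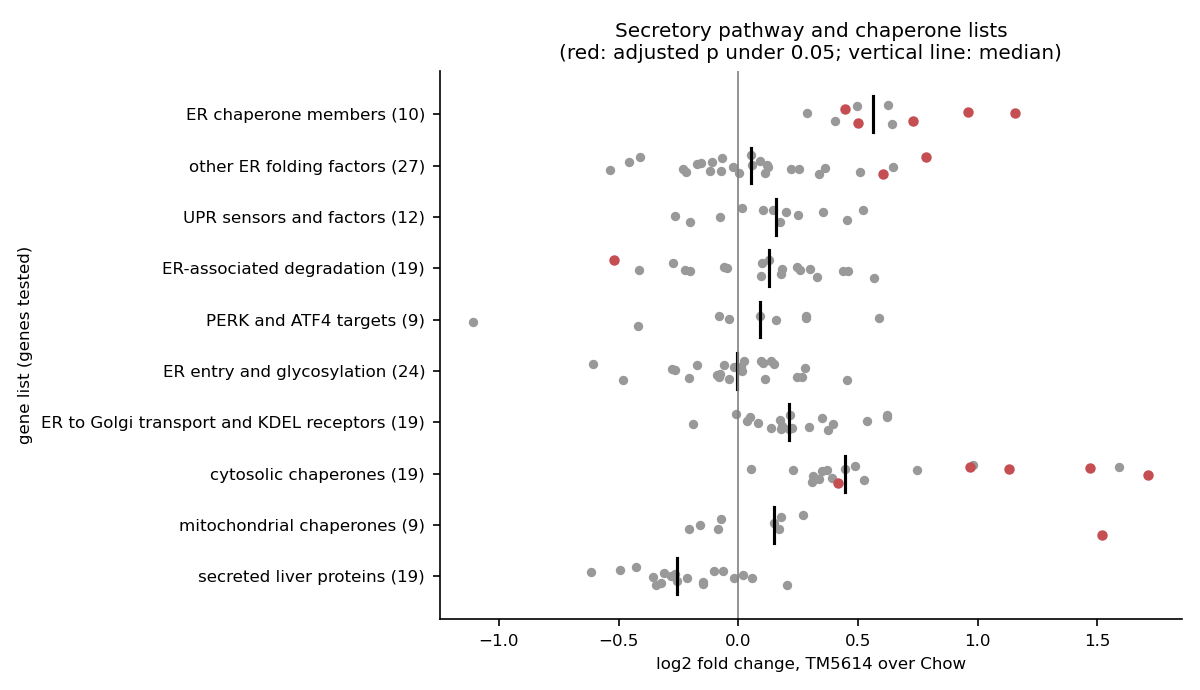
Log2 fold change of TM5614 over Chow (horizontal axis) for each tested gene (points) of the ER chaperones and of 9 other gene lists (rows, with the number tested), with a vertical line at each median and red points for an edgeR adjusted p under 0.05. Only the ER chaperones (median 0.56) and the cytosolic chaperones (median 0.44) have all points above 0, and the secreted proteins have a median of -0.25.

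The ERSE was then related to the change in mRNA over all genes with a promoter window. Of 8549 such genes tested, 14 had an exact ERSE, and 4 of these rose and none fell. The median estimate of the 14 was 0.41 on the log2 scale. Across all 11092 tested genes, with or without a window, it was 0.01, and 1.73% were called higher. Besides the 5 chaperones the 14 were Acacb, Acnat2, Alg12, Canx, Dnajc3, Hnrnpa3, Pan2, Syvn1 and Xlr3a. Of these 9 only 1 rose, Hnrnpa3 (log2 fold change 0.70, edgeR adjusted p = 0.0189). The others that rose were Hspa5, Hsp90b1 and Creld2, already counted above among the chaperones. Within the chaperones the elements shown above were present in genes that rose (Hspa5, Hsp90b1, Creld2) and in genes that did not pass (Calr, Pdia6), and Pdia3 rose with no exact match in its window. A match describes the letters of the window and is not evidence of binding.

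The genes whose pattern over the 10 libraries was most like the mean of the chaperones, each standardized on the log2 CPM scale, were sought among tested genes with a mean of at least 50 counts. They were Dnajb11 (Pearson r = 0.986), the phosphatase gene Dusp3 (0.956), Nfya, a subunit of the factor NF-Y (0.946), the RNA methyltransferase gene Ftsj3 (0.942), the RNA-binding protein gene Hnrnpa3 (0.938) and G6pc, the glucose-6-phosphatase of liver (0.933). With group means subtracted, the difference between Chow and TM5614 no longer counts. The most alike genes were then Dnajb11 (r = 0.938), the ubiquitin-activating enzyme gene Uba1 (0.932), Ero1lb, an oxidase that recharges disulfide isomerases (0.909), Slc25a44 (0.904), Map3k3 (0.882) and Ptk2 (0.864). Dnajb11 was the 1 gene in both sets. These libraries share depth scaling, and the values describe likeness only.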

How the data were processed

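Hepatic poly(A) RNA of 5 Chow and 5 TM5614 mice was sequenced as single-end reads. The submitters' processing notes name STAR, HOMER, DESeq2 and mm10 (the GRCm38 assembly), and versions, gene annotation and use of strand are not given in the sources used here, so overlapping genes could share reads. The authors deposited raw counts for each gene symbol, as whole numbers without scaling. The authors also deposited FPKM values, which were found to be counts divided by DESeq2 size factors and gene length, and these served only for levels between genes. Regularized log2 values and the authors' own DESeq2 comparison (fold changes, statistics and p-values) were not used.

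Each column was tied to its sample through the mouse number, and groups came from the sample titles. Across the 20 pairs within groups, counts differed with a chi-square per degree of freedom of 7.50 or more, so none was a repeat. Genes passing filterByExpr were tested with edgeR 4.0.16 under R 4.3.3, by TMM scaling and its two-sided quasi-likelihood test without a block. P-values were adjusted over all 11092 such genes by the Benjamini-Hochberg method and called at 0.05. The study used DESeq2, run here (1.42.0) as an alternative, as was limma-voom (3.58.1). Other alternatives changed the scaling (RLE, upper-quartile or totals), the filter (none, or 10 counts in each library), the dispersion (robust), the threshold (0.01) and the design (a replicate block), or left out each library in turn. CPM used TMM-scaled totals, and log2 CPM a prior count of 2. Standard errors were derived from the F statistic. The scripts were tested on simulated counts.

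The members, gene lists, tests and alternatives were chosen with earlier results of these data known. Named genes were the 10 members, the genes of each list past the threshold (up to 8) and the 6 most like the members in pattern. Genes named outside this rule, such as P4hb, Xbp1 or Ttr, were chosen after their values were seen. Age and strain follow the labels, while the study's text gives a slightly lower age and the substrain C57BL/6 J. GC content and length, known for 96.7% of tested genes, came from the longest GENCODE M21 transcript, and their trends, as splines with 5 degrees of freedom each, were removed in an alternative. Depth sets precision, and without molecular identifiers several reads can stem from 1 molecule. Protein sequences were not used here.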

Additional observations from a re-analysis of the deposited data

Results flagged for a closer look

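The 24 groups of 5 libraries examined were 12 measures in each of Chow and TM5614. The highest or lowest liver was compared with the rest by its gap to the nearest. By Dixon's criterion 3 stood apart, where chance alone gives about 1.2, or 1 in 20. Hsp90b1 was at 679 CPM in Chow replicate 2, and the other Chow livers were at 789 to 827 CPM. Sdf2l1 was at 18.9 CPM in the same liver, against 5.82 to 9.48 CPM in the others. The count of Hspa5 per count of Hsp90b1 was 0.859 in TM5614 replicate 5, and 0.980 to 1.01 in the other treated livers. The causes were not tested.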

How the results depend on the processing

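All 10 chaperones had estimates above 0 in all 21 alternatives, and the median of all genes stayed between -0.006 and 0.062. The count of chaperones called, 5, was 6 with DESeq2, 9 with limma-voom and sample quality weights and 3 with no filter. It was 2 at an adjusted p of 0.01 and 2 to 9 with a library left out. With no filter 368 of 17291 genes were called, and with library totals alone 469 of 11092. Over all genes, 499 calls became 900 with DESeq2, 1386 with limma-voom and 184 at 0.01 (235 to 1031 with a library left out, the highest without Chow replicate 2). With DESeq2 the calls were 4 for degradation (3 higher), 1 for ER entry, 1 for ER to Golgi transport, 11 for cytosolic chaperones and 3 for secreted proteins. With limma-voom they were 1 for sensors, 4 for degradation (3 higher), 1 for Perk and Atf4 targets, 3 for ER entry, 5 for ER to Golgi transport, 13 for cytosolic chaperones and 4 for secreted proteins. With library totals alone they were 2 for degradation (1 higher) and 8 for cytosolic chaperones. With the GC and length offset they were 2 for degradation (both higher), 1 for Perk and Atf4 targets, 8 for cytosolic chaperones and 1 for secreted proteins. At an adjusted p of 0.01 they were 1 for other folding factors, 0 for degradation and 2 for cytosolic chaperones. With a library left out the calls ran from 2 to 3 for other folding factors, 0 to 1 for sensors, 0 to 4 for degradation, 0 to 1 for Perk and Atf4 targets, 0 to 2 for ER entry, 0 to 2 for ER to Golgi transport, 2 to 11 for cytosolic chaperones, 1 to 1 for mitochondrial chaperones and 0 to 3 for secreted proteins. With group means subtracted, 1 of the 6 genes most like the chaperones was shared. The cause of these shifts was not tested.

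No clear pairing of the livers by replicate number was seen. Deviations of same-numbered livers had correlations of 0.0316 to 0.318, all above 0. Of 5 Chow livers, 1 correlated best with its own number. So few livers cannot exclude a pairing. The paper describes the controls as age-matched littermates, and the labels do not give litters. With the replicate number as a block 5 chaperones were called, Pdia4 (edgeR adjusted p = 0.0312) in place of Pdia3 (0.0529), 555 genes in all, 1 Perk and Atf4 target, and 1 gene of degradation. Sdf2l1 and Creld2 had the fewest counts of the 10. Creld2 passed in every setting, and whether depth limits the call of Sdf2l1 was not tested.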
